A study of Mus musculus with 10 samples.

Results

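In mouse melanoma tumors, 10 genes that place a melanoma cell between the pigmented melanocytic state and the dedifferentiated state were followed, out of 45706 gene identifiers counted. They were taken by symbol, with earlier results of these data known, as 3 lineage transcription factors (Mitf, Sox10 and Pax3), 3 pigment genes (Tyr, Dct and Mlana), the neuregulin receptor Erbb3, and 3 genes of the dedifferentiated state (Axl, Ngfr and Sox9). Bulk RNA of whole tumors was sequenced from the 3′ end of transcripts in 10 libraries, all collected on day 4 after implantation in C57BL/6 hosts of 8 weeks. Of these, 4 libraries came from tumors of COX-competent melanoma cells (Ptgs+/+) and 3 from tumors of cells lacking both Ptgs1 and Ptgs2 (Ptgs-/-), all in untreated hosts. A further 3 came from Ptgs-/- tumors in NK cell-depleted hosts, which had been given NK1.1 antibody at 200 µg and asialo GM1 antibody at 30 µg per mouse, on days 0 and 2 according to the labels. The study's methods describe a different dosing schedule for NK cell depletion, and which of the schedules these hosts received is not settled here. Ptgs1 and Ptgs2 encode the cyclooxygenases COX-1 and COX-2, which make the precursor of prostaglandin E2. All 3 groups descend from 1 Braf-mutant, p16INK4a-deficient C57BL/6 melanoma model in which the Cre was driven by the Tyr promoter, so every group shares those alleles, and the Ptgs-/- cells were made from the parental cells with CRISPR/Cas9.

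In the melanocyte lineage, Pax3 and Sox10 act upstream of Mitf, and the MITF protein switches on the enzymes and structural proteins that make and hold melanin. Melanoma cells can leave this state, losing MITF targets while gaining receptors such as AXL and NGFR, and SOX9 is often described as high where SOX10 is low. The 2 ends are therefore read as sets of genes, one of pigment cells and one of dedifferentiated or neural crest-like cells, and whole tumors also hold host cells that can express some of them. In bulk tumors, fewer cells of a type and less RNA per cell cannot be told apart.

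The libraries held 8150556 to 12839174 counts, which sets a floor of 3 counts at 0.234 to 0.368 CPM (counts scaled to 1000000 per library), covering counting error only. Ptgs1 lay at 128 to 170 CPM in Ptgs+/+ and at 77.0 to 105 CPM in the 6 Ptgs-/- tumors, while Ptgs2 lay at 94.4 to 347 and 27.0 to 74.8 CPM. Both were lower in every Ptgs-/- library but not absent, and counts from the 3′ end need not see an edited exon. Ncr1, which encodes the NK cell receptor NKp46, had 7 to 12 counts in Ptgs+/+, 20 to 77 in Ptgs-/- and 0 in each NK cell-depleted library. Ptgs+/+ replicate 4 and Ptgs-/- replicate 3 carry a different title code (EB042) from the other 8 libraries (EB046). The labels do not say what the code stands for. Ptgs+/+ replicate 3 stood apart from its group for Ptgs2, at 94.4 CPM against 283 to 347 CPM. The labels do not say that replicates came from separate animals, so p-values measure only the spread between these samples.

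The promoter sequences of Tyr and Dct are shown because these 2 pigment genes are known targets of MITF, which binds the M-box, and that of Mitf because its melanocyte promoter is known to hold a cyclic AMP response element. RefSeq promoters on GRCm38.p6 were matched for 5 of the 10 genes (Mitf with 3 starts, Tyr, Dct, Axl and Ngfr), as the 250 bases before each start. The M-box, TCATGTG on either strand, contains the E-box CATGTG and is in capitals for Tyr and Dct, and the cyclic AMP response element TGACGTCA is in capitals for Mitf. Tyr is read from the minus strand at chr7:87493513-87493762, Dct from the minus strand at chr14:118052247-118052496 and the third listed start of Mitf from the plus strand at chr6:97991533-97991782.
Tyr: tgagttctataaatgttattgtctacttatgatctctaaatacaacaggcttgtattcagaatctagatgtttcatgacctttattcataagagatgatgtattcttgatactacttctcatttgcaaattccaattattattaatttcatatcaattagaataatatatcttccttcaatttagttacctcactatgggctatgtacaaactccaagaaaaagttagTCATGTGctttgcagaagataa
Dct: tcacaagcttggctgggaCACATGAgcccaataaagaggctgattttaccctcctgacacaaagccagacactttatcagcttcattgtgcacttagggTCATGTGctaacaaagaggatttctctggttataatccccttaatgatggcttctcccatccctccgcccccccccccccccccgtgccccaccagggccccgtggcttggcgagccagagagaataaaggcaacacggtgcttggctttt
Mitf: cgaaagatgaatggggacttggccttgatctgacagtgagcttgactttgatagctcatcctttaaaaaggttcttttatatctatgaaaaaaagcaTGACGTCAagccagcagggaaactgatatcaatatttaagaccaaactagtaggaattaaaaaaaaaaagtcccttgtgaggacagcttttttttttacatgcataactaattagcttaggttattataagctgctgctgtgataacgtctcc
In Tyr the M-box lay 22 to 16 bases before the start, and in Dct it was found 232 to 226 bases and 151 to 145 bases before the start, the first as its reverse complement. An M-box was present in 3.25% of 32851 mouse promoters of the same length, and in none of the other 5 promoters of these genes. The letters TGACGTCA, searched after the sequence had been seen, lay 153 to 146 bases before the third Mitf start and are held by 1.55% of all promoters. Dct also held the SOX motif ACAAAG at 2 places, against 16.5% of promoters with at least 1. The other motifs searched were CANNTG, found in Tyr, Dct, Ngfr and the second Mitf start against 66.2% of promoters, and AACAAT, found in none of these against 9.42%. A match describes letters only, and 3′ counts do not tell which Mitf start was used.

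The pigment genes were at or near the detection floor in every tumor, whatever its Ptgs genotype. Tyr, the enzyme that begins melanin synthesis, had 0 or 1 count in each of the 10 libraries. Mlana, a melanosome protein, had 0 counts in all 4 Ptgs+/+ libraries, 1 in each Ptgs-/- library and 0, 0 and 2 in the NK cell-depleted libraries. Both genes were at the floor of 3 counts in every library, so no fold is given. Dct, which acts after tyrosinase in the same pathway, had 1, 1, 8 and 6 counts in Ptgs+/+, 1, 1 and 4 in Ptgs-/- and 2, 0 and 4 in the NK cell-depleted libraries. The 3 groups overlapped for Dct, and its highest value was 0.702 CPM. None of these 3 genes passed the filter on low counts. In a fit without that filter, their lowest FDR in any comparison was 0.252, for Mlana in Ptgs-/- against Ptgs+/+. A difference in these genes was thus not detectable at this depth.

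The wider set of melanosome genes was likewise partly at the floor. Of 16 further melanosome and pigment genes, Tyrp1, Oca2, Slc45a2, Gpr143 and Tspan10 were at the floor in every library, and Slc45a2, a melanosome transporter, had 0 counts in all of them. Pmel, which builds the fibrils that melanin is laid on, had only 2 to 8 counts per library. The 6 that could be tested were Gpnmb, Hps4, Mlph, Myo5a, Rab27a and Rab38, mostly genes for organelle transport that other cells use too. By these defining genes, the tumors carried little sign of a pigmented state.

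Mitf, Pax3, Sox10 and Erbb3 were all counted in these tumors, in contrast to the pigment genes, and none of the 4 passed the test in any comparison. Mitf, the master regulator of melanocytes, was measured at 20.6, 19.2, 29.8 and 17.4 CPM in the Ptgs+/+ libraries, at 24.7, 33.1 and 28.9 CPM in Ptgs-/-, and at 24.0, 27.7 and 28.1 CPM in NK cell-depleted Ptgs-/- tumors. Of the Ptgs+/+ libraries, 3 lay below every Ptgs-/- library, and replicate 3 lay among them. The log2 fold change of Ptgs-/- against Ptgs+/+ was 0.35 (SE 0.18, FDR = 0.192), with a 95% interval from -0.05 to 0.75. Without Ptgs+/+ replicate 3 it was 0.54 with an FDR of 0.0146, so this library alone decided on which side of the threshold Mitf fell. Whole tumors also hold host cells, and their part in the Mitf level was not tested.

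Pax3, a paired-box factor of the neural crest, had overlapping levels in the 3 groups. It lay at 26.3, 25.9, 21.9 and 24.1 CPM in Ptgs+/+, at 28.8, 17.9 and 21.9 CPM in Ptgs-/-, and at 27.0, 26.3 and 25.8 CPM after NK cell depletion. The spread was widest among the Ptgs-/- libraries, and the log2 fold change of Ptgs-/- against Ptgs+/+ was -0.16 with an interval from -0.50 to 0.17. That of NK cell-depleted Ptgs-/- against Ptgs+/+ was 0.07, with an interval from -0.26 to 0.40. Pax3 is also known from skeletal muscle progenitors. The summed level of 5 satellite cell markers was 0 to 0.312 CPM in Ptgs+/+, 0.0912 to 0.517 CPM in Ptgs-/- and 0.642 to 2.98 CPM in NK cell-depleted tumors, none of the 5 passed the filter on low counts, and their part in the Pax3 level was not tested.

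Sox10, which holds cells in the neural crest and melanocyte lineage, was low, and 2 libraries stood apart. Its counts were 19, 18, 63 and 17 in Ptgs+/+, 21, 2 and 29 in Ptgs-/- and 28, 28 and 23 in the NK cell-depleted libraries. Ptgs+/+ replicate 3 was the highest of all at 5.53 CPM, and Ptgs-/- replicate 2 was the lowest at 0.207 CPM and below its floor of 3 counts. With these libraries the intervals were wide, from -1.996 to 0.74 for Ptgs-/- against Ptgs+/+, where the log2 fold change was -0.63. Without Ptgs+/+ replicate 3 that value was 0.03, so no direction is given for Sox10. Schwann cells also express Sox10. The summed level of 10 Schwann cell markers was 80.6 to 293 CPM in Ptgs+/+, 183 to 549 CPM in Ptgs-/- and 203 to 385 CPM in NK cell-depleted tumors, with Pmp2 at 0 counts in every library. The highest of these Ptgs+/+ sums and the lowest of these Ptgs-/- sums fell in the same libraries as the highest and lowest Sox10. Over all libraries the extremes did not match. The highest sum, 549 CPM, was in Ptgs-/- replicate 1, where Sox10 was at 2.58 CPM. The lowest sum, 80.6 CPM, was in Ptgs+/+ replicate 2, where Sox10 was at 1.86 CPM. Of the 9 markers tested, 3 passed as higher in Ptgs-/- against Ptgs+/+ and 1 in NK cell-depleted Ptgs-/- against Ptgs+/+, and their part in the Sox10 counts was not tested.

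Erbb3, the receptor through which neuregulins act on Schwann and melanocyte precursors, was at 5.45, 12.2, 12.6 and 7.22 CPM in Ptgs+/+. It was at 4.42, 6.83 and 11.6 CPM in Ptgs-/- and at 11.02, 7.84 and 9.24 CPM after NK cell depletion. The spread within the first 2 groups was over the difference between them, and the log2 fold change was -0.35 with an interval from -1.11 to 0.42. The interval for NK cell-depleted Ptgs-/- against Ptgs+/+ ran from -0.78 to 0.72.

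**Figure D1:**
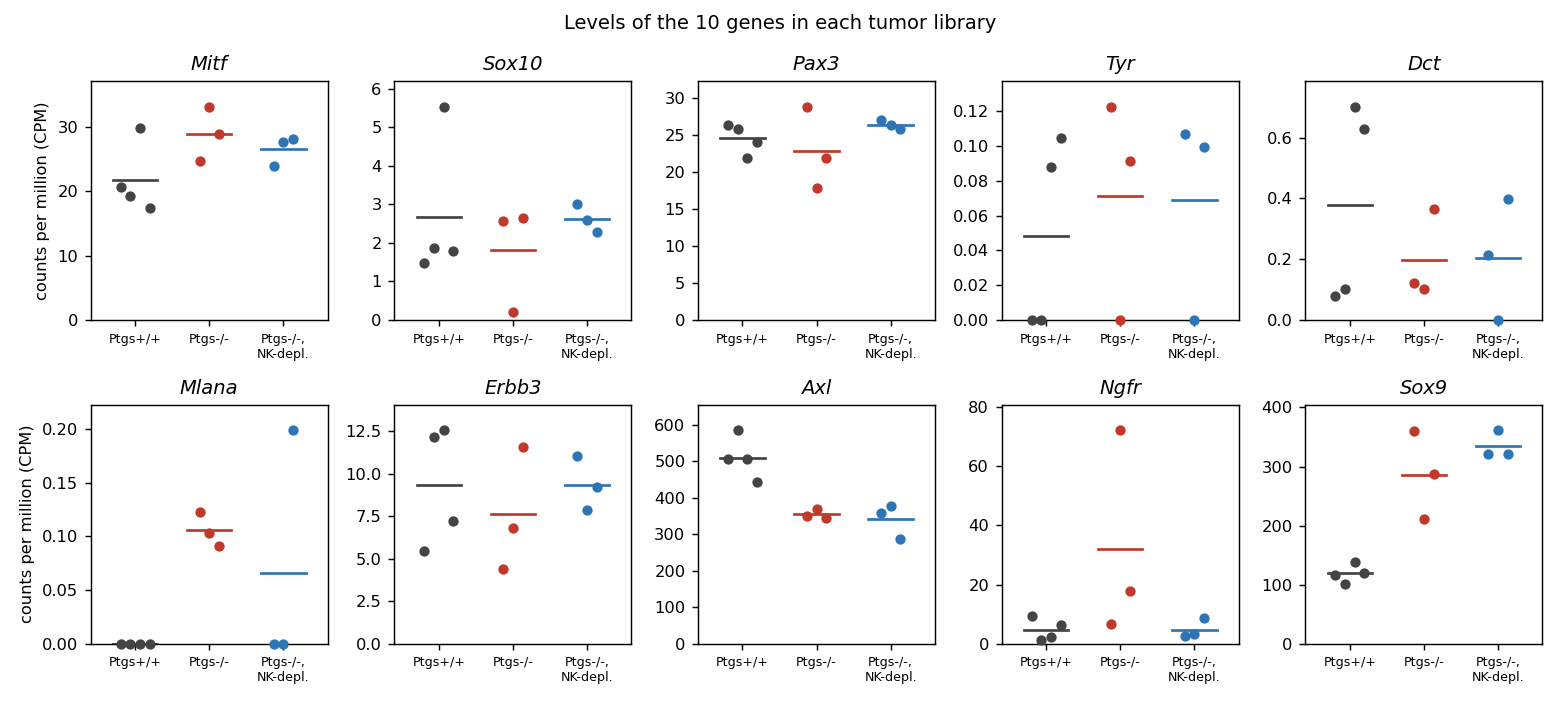
Level of each of the 10 genes in CPM (vertical axis, from 0, with its own scale for each gene) in each tumor library (points) of the 3 groups, with bars at group means. Sox9 and Axl separate the 4 Ptgs+/+ libraries from the 6 Ptgs-/- libraries in opposite directions, Ngfr is high in 1 Ptgs-/- library, and Tyr and Mlana stay at 0 to 2 counts.

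The genes of the dedifferentiated state did not move as 1 block. Sox9 was higher and Axl was lower in Ptgs-/- tumors than in Ptgs+/+ tumors, in hosts with and without NK cells, while Ngfr was uneven among the Ptgs-/- libraries. In Ptgs-/- against Ptgs+/+, 2 of the 7 genes tested passed as higher (Sox9 and Ngfr) and 1 as lower (Axl) at an FDR at or under 0.05. Among all 14550 genes tested, 23.1% passed, 12.1% as higher and 11% as lower. Of the 7, 1 gene (Ngfr) was also called, which needs a log2 fold change of 1.5 or more in either direction too, against 4.15% of all genes. The median log2 fold change of the 7 was -0.16, beside -0.01 over all genes tested.

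Sox9, a transcription factor of neural crest, cartilage and hair follicle stem cells, was at 116, 101, 139 and 120.4 CPM in Ptgs+/+. It was at 359.6, 210.4 and 288 CPM in Ptgs-/- and at 322, 361 and 321 CPM in NK cell-depleted Ptgs-/- tumors. Every Ptgs-/- library, with or without NK cells, lay above every Ptgs+/+ library. In Ptgs-/- against Ptgs+/+, 2 of the 7 genes (Sox9 and Axl) had groups that did not overlap, beside 30.6% of all genes tested, and the same count of 2 in NK cell-depleted Ptgs-/- against Ptgs+/+ stood beside 27.1%. Ptgs-/- tumors held 286 ± 74.6 CPM (SD, n = 3) against 118.9 ± 15.6 CPM (SD, n = 4), a log2 fold change of 1.21 (SE 0.16, FDR = 0.000549) or 2.31-fold. NK cell-depleted Ptgs-/- tumors held 335 ± 23.1 CPM (SD, n = 3), a log2 fold change of 1.46 (SE 0.16, FDR = 0.000191) or 2.75-fold against Ptgs+/+. With the 8 EB046 libraries alone, these were 1.24 (FDR = 0.0066) and 1.47 (FDR = 0.00211). Both comparisons share the Ptgs+/+ libraries. In the order of group means, NK cell-depleted Ptgs-/- came first and Ptgs-/- second, and these neighbours overlapped.

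Other tissues that express Sox9 were followed by their markers. All 6 cartilage markers together summed to 0.277 to 1.86 CPM in any library, with Acan, Matn3 and Matn1 at the floor throughout. Markers of keratinocytes and hair follicle summed to 22.4 to 34.3 CPM in Ptgs+/+, 21.0 to 26.3 CPM in Ptgs-/- and 29.4 to 33.9 CPM in NK cell-depleted tumors. Of these 12 markers, 6 were at the floor in every library and 6 were tested, with 1 lower in Ptgs-/- and 1 higher in NK cell-depleted Ptgs-/- tumors against Ptgs+/+. The lower one was Krt5, a keratin of basal keratinocytes (log2 fold change -1.81, FDR = 0.026). The higher one was Lgr5, which marks hair follicle stem cells, with 5 to 8 counts in Ptgs+/+, 9 to 14 in Ptgs-/- and 15 to 33 in NK cell-depleted tumors (log2 fold change 1.83, FDR = 0.00458). Lgr5 was thus ordered like Sox9 across the groups, while Krt5 was not, and both were named after their values were seen. Against Ptgs+/+, the median log2 fold change of the 6 tested markers was -1.22 in Ptgs-/- and -0.39 in NK cell-depleted Ptgs-/- tumors. The median of these markers was thus below 0 in both comparisons, where Sox9 was higher. Their sums in each Ptgs-/- group overlapped those of Ptgs+/+, and none passed as lower in NK cell-depleted Ptgs-/- tumors. The part of these tissues in the Sox9 level was not tested.

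Axl, a receptor tyrosine kinase for Gas6 that is widely used as a sign of the invasive melanoma state, went the other way. It was at 506, 585, 505 and 444 CPM in Ptgs+/+, at 349.7, 369.7 and 345 CPM in Ptgs-/- and at 359, 377 and 288 CPM after NK cell depletion. All 6 Ptgs-/- libraries lay below the lowest Ptgs+/+ library. Ptgs-/- tumors held 355 ± 13.2 CPM (SD, n = 3) against 509.95 ± 57.6 CPM (SD, n = 4), a log2 fold change of -0.58 (SE 0.13, FDR = 0.00743), or 1.5-fold lower. NK cell-depleted Ptgs-/- tumors held 341 ± 46.9 CPM (SD, n = 3), a log2 fold change of -0.61 (SE 0.13, FDR = 0.00971) against Ptgs+/+. Without NK cell-depleted replicate 3, this was -0.49 with an FDR of 0.0507, just past the threshold.

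Macrophages express Axl as well, and their markers moved in the opposite direction to it. The 12 macrophage markers summed to 2622 to 3149 CPM in Ptgs+/+, 4406 to 6615 CPM in Ptgs-/- and 4031 to 4216 CPM in NK cell-depleted tumors. Of the 12, 8 passed as higher in Ptgs-/- and none as lower, while in NK cell-depleted Ptgs-/- against Ptgs+/+ 3 passed as higher and 1 as lower. The 10 fibroblast markers summed to 7835 to 10936 CPM in Ptgs+/+, 14111 to 17490 CPM in Ptgs-/- and 11234 to 14269 CPM in NK cell-depleted tumors, with 5 higher in Ptgs-/- and 2 in NK cell-depleted Ptgs-/- tumors against Ptgs+/+ and none lower. Of 8 proliferation genes, 6 were lower in Ptgs-/- and 5 in NK cell-depleted Ptgs-/- tumors against Ptgs+/+, with sums of 1813 to 2445, 1075 to 1226 and 1123 to 1583 CPM. The part of these cells in the levels of Axl and Sox9 was not tested.

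**Figure D2:**
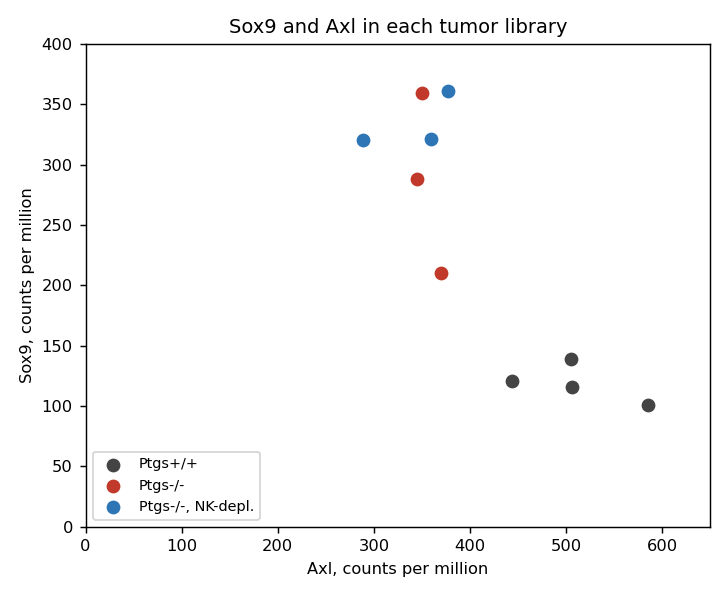
Sox9 (vertical axis) against Axl (horizontal axis), both in CPM, with 1 point for each tumor library coloured by group. The 4 Ptgs+/+ libraries lie at 101 to 139 CPM of Sox9 and 444 to 585 CPM of Axl, and the 6 Ptgs-/- libraries lie at 210.4 to 361 CPM of Sox9 and 288 to 377 CPM of Axl.

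The ratio of Sox9 to Axl counts was 0.228, 0.173, 0.274 and 0.271 in Ptgs+/+, 1.03, 0.569 and 0.836 in Ptgs-/- and 0.895, 0.959 and 1.11 in NK cell-depleted Ptgs-/- tumors. The ratios of Ptgs+/+ and Ptgs-/- tumors did not overlap, which follows from the separation of both genes in opposite directions and adds nothing to it. The ratios of the Ptgs-/- groups with and without NK cells overlapped. The plot of Sox9 against Axl shows the same 2 clusters, so no correlation over all libraries is given for this pair.

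Ngfr, the low-affinity neurotrophin receptor that marks neural crest-like cells, was called in Ptgs-/- against Ptgs+/+ but rested on 1 library. It had 9.50, 1.24, 2.28 and 6.17 CPM in Ptgs+/+, 6.63, 72.1 and 17.7 CPM in Ptgs-/- and 2.46, 3.23 and 8.64 CPM in NK cell-depleted Ptgs-/- tumors. Ptgs-/- replicate 2 stood far above the rest, and Ptgs-/- replicate 1 lay below Ptgs+/+ replicate 1, so the groups overlapped. The log2 fold change was 2.68 (SE 0.77, FDR = 0.0276). Without Ptgs-/- replicate 2 it was 1.27 with an FDR of 0.254. The call was also lost without Ptgs+/+ replicate 2 (FDR = 0.0703), replicate 3 (FDR = 0.0509) or replicate 4 (FDR = 0.052). Ngfr was highest in the library in which Sox10 was lowest.

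NK cell depletion did not give a passing change in any of these genes. In Ptgs-/- against NK cell-depleted Ptgs-/- tumors, 0 of the 7 genes tested passed, beside 1.44% of all genes, and none was called, beside 1.15%. Of them, 1 (Ngfr) had an unadjusted p under 0.05 in edgeR's test, and neither DESeq2 nor edgeR's likelihood ratio test passed any of the 7. The log2 fold change of Ngfr was 2.73 (SE 0.86, FDR = 0.224), and it passed only in the fit without a filter on low counts, at an FDR of 0.00669. For Sox9 it was -0.25 with a 95% interval from -0.63 to 0.13. For Axl it was 0.03 with an interval from -0.27 to 0.32, and for Mitf 0.09 with an interval from -0.33 to 0.52. In NK cell-depleted Ptgs-/- against Ptgs+/+ tumors, 1 of 7 passed as higher (Sox9) and 1 as lower (Axl), beside 6.63% and 5.87% of all genes, and the other 5 did not pass. None was called, beside 2.71% of all genes. The NK cell-depleted tumors differed strongly in skeletal muscle markers, whose sum was 2739 to 6646 CPM against 142 to 487 CPM in Ptgs-/- and 26.9 to 208 CPM in Ptgs+/+. The part of this tissue in the levels of the 10 genes was not tested.

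**Figure D3:**
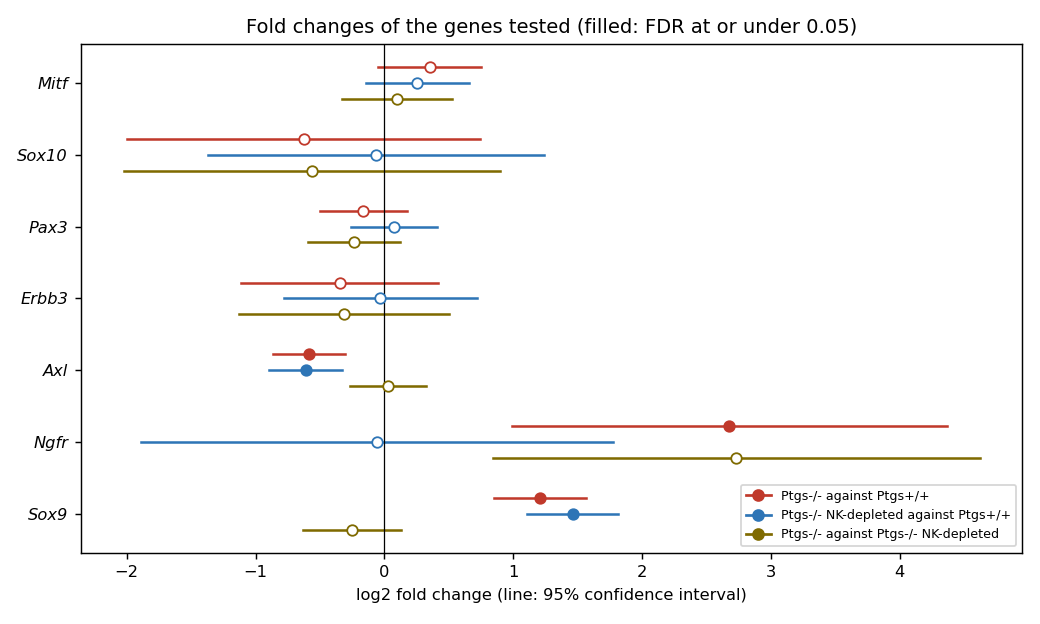
Log2 fold change (points) with its 95% confidence interval (lines) for the 7 genes tested, in the 3 comparisons, with filled points where the FDR is at or under 0.05. Sox9 lies to the right and Axl to the left of 0 in both comparisons with Ptgs+/+, and the intervals of Mitf, Sox10, Pax3 and Erbb3 include 0 in all 3.

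The other genes of these states were described from 5 lists. Among 24 invasive and dedifferentiated melanoma genes, all tested, 6 passed as lower and 2 as higher in Ptgs-/- against Ptgs+/+, beside the 11% and 12.1% of all genes, with a median log2 fold change of -0.46. In NK cell-depleted Ptgs-/- against Ptgs+/+ tumors, 4 passed as lower and 1 as higher, beside 5.87% and 6.63% of all genes, with a median of -0.29. Thbs1, a secreted matrix glycoprotein, was called in both, at 91.8 ± 25.3 CPM (SD, n = 4) in Ptgs+/+, 20.1 ± 2.95 CPM (SD, n = 3) in Ptgs-/- and 20.6 ± 2.55 CPM (SD, n = 3) in NK cell-depleted tumors. Its log2 fold changes were -2.25 (FDR = 9.71e-05) and -2.19 (FDR = 0.000114). Tnc, another matrix glycoprotein, fell by 1.44 and 0.84 on the log2 scale. Inhba, a subunit of activin, fell by 1.28 and 0.88. Plaur, the urokinase receptor, fell by 0.97 in Ptgs-/- but had an FDR of 0.0629 in the other comparison. With the EB046 libraries alone, Plaur did not pass in Ptgs-/- against Ptgs+/+ either (FDR = 0.0821). Tgfbi fell by 0.64 and 0.80. The 2 that rose in Ptgs-/- were Fn1 and Loxl2, both matrix genes, of which Fn1 also rose in NK cell-depleted tumors. These 2 were named after their values were seen.

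Of 10 neural crest stem-like genes, 9 were tested, and 2 passed as higher and 2 as lower in Ptgs-/-, and 3 and 2 in NK cell-depleted Ptgs-/-, each against Ptgs+/+. All genes passed as higher and lower at 12.1% and 11% in the first comparison and at 6.63% and 5.87% in the second, so with 9 genes these counts are few. Tfap2b, an AP-2 transcription factor of the neural crest, had the widest change of the list. It was at 103, 104, 91.6 and 96.9 CPM in Ptgs+/+, at 1.10, 1.24 and 14.0 CPM in Ptgs-/- and at 12.1, 6.37 and 17.1 CPM in NK cell-depleted tumors. All 6 Ptgs-/- libraries were far below Ptgs+/+, with log2 fold changes of -4.19 (SE 0.65, FDR = 0.00119) and -3.10 (SE 0.60, FDR = 0.00659). With the EB046 libraries alone, the first was -6.41, since the third Ptgs-/- library carries the other code. Gfra2, a receptor for GDNF-family ligands, rose by 0.92 and 0.96, and Aqp1, a water channel that endothelium also expresses, fell by 0.88 and 0.63. The 7 endothelial markers summed to 253 to 291 CPM in Ptgs+/+, 112 to 241 CPM in Ptgs-/- and 177 to 265 CPM in NK cell-depleted tumors. Of them, 2 (Pecam1 and Cdh5) passed as lower in Ptgs-/- and 0 in NK cell-depleted Ptgs-/- tumors, and their part in the Aqp1 level was not tested. Cadm1, an adhesion molecule, rose by 0.61 and 0.78. Nes, an intermediate filament of progenitor cells, passed only in the NK cell-depleted comparison, where it rose by 0.66. The first Cadm1 value and the Nes value were each lost in 6 of 10 fits that left out 1 library. The second Cadm1 value was lost in 4. With the EB046 libraries alone, the first Cadm1 value and the Nes value did not pass (FDR = 0.0743 and 0.0553).

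Of the 10 melanocyte receptors and transcription factors, 8 were tested, 2 passed as higher in Ptgs-/- and 1 in NK cell-depleted Ptgs-/- tumors, beside 12.1% and 6.63% of all genes, and none as lower. Irf4, a factor that acts with MITF on Tyr in melanocytes and is also strongly expressed in lymphocytes and myeloid cells, was at 9.03, 3.81, 4.83 and 5.55 CPM in Ptgs+/+, at 20.7, 46.8 and 30.8 CPM in Ptgs-/- and at 15.9, 18.9 and 22.7 CPM after NK cell depletion. Its log2 fold changes were 2.43 (FDR = 0.000387) and 1.68 (FDR = 0.00467). Neither Ptgs-/- group overlapped Ptgs+/+, and macrophage markers moved the same way, as given above. Snai2, a neural crest transcription factor, rose by 0.68 in Ptgs-/-, with an FDR of 0.0661 without Ptgs-/- replicate 2. Mc1r, the melanocortin receptor of melanocytes, was at the floor in every library.

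Of the 6 melanosome genes tested, Gpnmb and Myo5a passed as higher in both comparisons with Ptgs+/+, beside the same 12.1% and 6.63%, and none as lower. Gpnmb, a melanosome glycoprotein that macrophages also make, was at 10.4 ± 3.50 CPM (SD, n = 4) in Ptgs+/+, 20.5 ± 6.56 CPM (SD, n = 3) in Ptgs-/- and 21.99 ± 6.99 CPM (SD, n = 3) in NK cell-depleted tumors. Its FDRs, 0.0498 and 0.0445, were close to the threshold, and 7 and 6 of 10 fits that left out 1 library lost it. Myo5a, the motor that carries melanosomes along actin, rose by 0.54 and 0.40 on the log2 scale.

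The ligands and partners of the receptors among these genes gave 12 testable genes of 17, with 2 higher and 2 lower in Ptgs-/- and 2 higher and 1 lower in NK cell-depleted Ptgs-/- tumors, beside 12.1%, 11%, 6.63% and 5.87% of all genes in the same order. Nrg1, a neuregulin that binds ERBB3, was at 4.78 ± 1.64 CPM (SD, n = 4) in Ptgs+/+, 1.74 ± 0.765 CPM (SD, n = 3) in Ptgs-/- and 1.55 ± 0.186 CPM (SD, n = 3) after NK cell depletion. Its log2 fold changes were -1.53 (FDR = 0.0134) and -1.65 (FDR = 0.0151), but with the EB046 libraries alone neither passed (FDR = 0.0815 and 0.0509). The first also had an FDR of 0.0647 without Ptgs-/- replicate 2, and the second was lost in 2 of 10 fits that left out 1 library, with an FDR of up to 0.0746. Erbb2, with which ERBB3 pairs to signal, fell by 0.89 in Ptgs-/-. Mertk, a receptor of the same family as Axl and a common macrophage gene, rose by 0.72 and 0.75 where Axl fell. Kitl, the ligand of the melanocyte receptor KIT, rose by 0.39 and 0.58, the first with an FDR of 0.0310. That first value was lost in 5 of 10 fits that left out 1 library and with the EB046 libraries alone (FDR = 0.0857). Gas6, the ligand of Axl, was at 436 ± 186 CPM (SD, n = 4) in Ptgs+/+ and 585 ± 322 CPM (SD, n = 3) in Ptgs-/-, and did not pass (FDR = 0.509). In Ptgs-/- against NK cell-depleted Ptgs-/- tumors, no gene of the 5 lists passed, with list medians from -0.22 to 0.02. For Tfap2b this rested on 1 library, since its log2 fold change was -1.09 (FDR = 0.601) with all libraries and -3.30 (FDR = 0.00755) without Ptgs-/- replicate 3. It was also -3.30 (FDR = 0.0164) with the EB046 libraries alone. Plaur passed as lower without Ptgs-/- replicate 1, and Snai1 did so without Ptgs+/+ replicate 3. Snai1 was named after its values were seen.

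**Figure D4:**
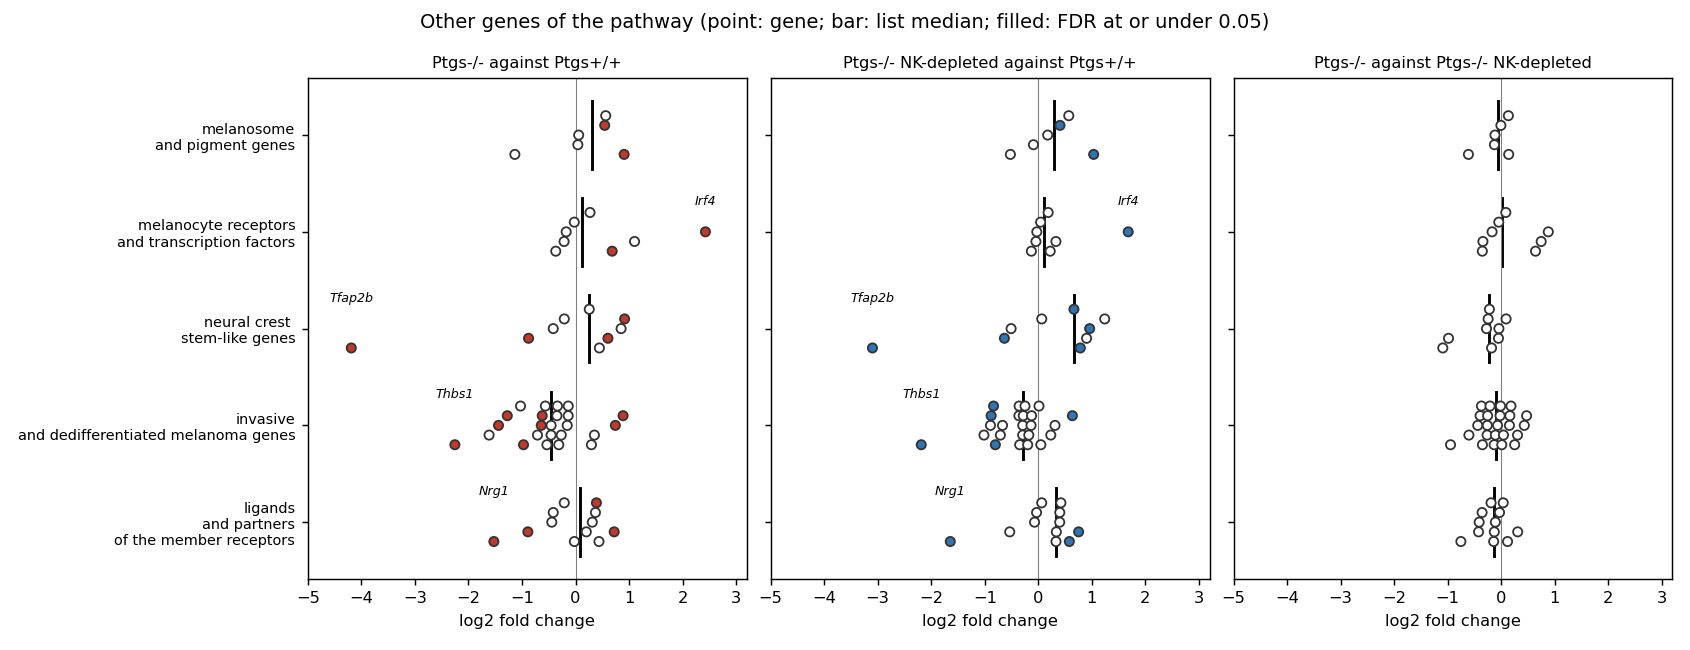
Log2 fold change (horizontal axis) of each tested gene (points) in 5 lists, for the 3 comparisons, with filled points where the FDR is at or under 0.05, bars at list medians, and names on the called genes. Tfap2b, Thbs1 and Nrg1 lie to the left and Irf4 to the right in both comparisons with Ptgs+/+, and no point is filled in the comparison of Ptgs-/- tumors with and without NK cells.

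**Figure D5:**
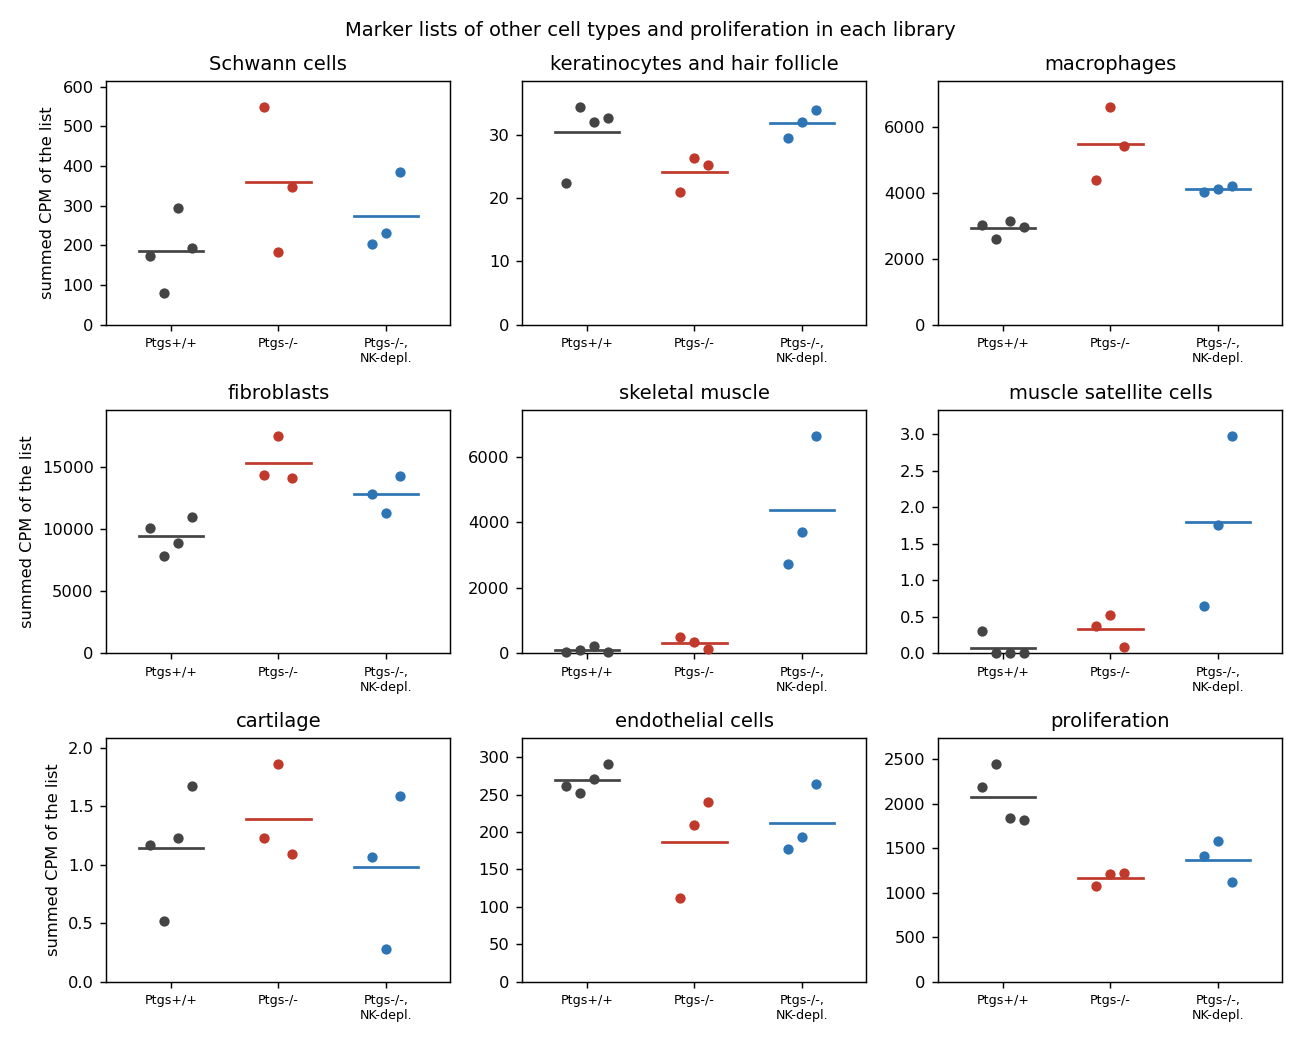
Summed CPM (vertical axis, from 0) of 9 marker lists in each tumor library (points), with bars at group means. Macrophage and fibroblast sums are higher and proliferation sums lower in Ptgs-/- than in Ptgs+/+, cartilage and satellite cell sums stay under 3 CPM, and muscle markers are high in NK cell-depleted tumors.

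The genes most like each member across the 10 libraries were ranked by Pearson's r of log2 CPM over 14550 genes. For Axl these were Pdia6 (r = 0.985), Mrpl47 (r = 0.982) and Tmem97 (r = 0.982). For Sox9 they were Zcrb1 (r = 0.985), Rapgef3 (r = 0.982) and Nptx1 (r = 0.98). Ngfr was most like Pdcd1 (r = 0.956), 4632404H12Rik (r = 0.948) and Akr1c14 (r = 0.938), and Mitf was most like Gabra3 (r = 0.963), Fam168a (r = 0.962) and Nipbl (r = 0.949). Pax3 was most like Ank (r = 0.983), Cd109 (r = 0.951) and Uhrf2 (r = 0.932). Erbb3 was most like 2410131K14Rik (r = 0.961), Macc1 (r = 0.944) and 0610040J01Rik (r = 0.936), and Sox10 was most like Bcl6b (r = 0.915), Cpne5 (r = 0.885) and Gm5121 (r = 0.882). All were chosen as the highest of 14550 values over 10 libraries that share groups and depth, and are a description with no test.

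On GRCm38 the genes lie apart from each other. Mitf is on chromosome 6 from 97807052 to 98021349 on the plus strand, Sox10 on chromosome 15 from 79154908 to 79165240 on the minus strand, and Pax3 on chromosome 1 from 78101267 to 78197134 on the minus strand. Tyr is on chromosome 7 from 87424771 to 87493512 on the minus strand, and Axl on the same chromosome and strand from 25757273 to 25788705. Dct is on chromosome 14 from 118012790 to 118052244 on the minus strand, Mlana on chromosome 19 from 29697824 to 29708634 on the plus strand, and Erbb3 on chromosome 10 from 128567523 to 128589652 on the minus strand. Ngfr on the minus strand from 95568818 to 95587735 and Sox9 on the plus strand from 112782224 to 112787760 are both on chromosome 11. Mitf overlaps the pseudogene Gm15531, which had 7 counts over all libraries. Dct overlaps the antisense gene 4930435M08Rik and Erbb3 the microRNA gene Mir6917, which had 0 counts. Whether counting used strand is not stated, so the few Dct counts cannot be told from its antisense partner.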

How the data were processed

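Libraries were made by the authors with the QuantSeq 3′ kit from bulk tumor RNA. The authors trimmed reads with BBDUK, fqtrim and cutadapt, used STAR for alignment against GRCm38 and featureCounts for gene counts, and the deposited values are raw counts, 1 column per library. The submitters' processing notes also name bcl2fastq and edgeR. Counting by strand or molecular identifier is not given in the sources used here. Of 45706 identifiers, GENCODE M21 named 45143. The 563 others kept their identifiers.

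In R 4.3.3, edgeR 4.0.16 kept 14550 genes (filterByExpr), scaled the libraries by TMM and fitted 1 quasi-likelihood model of all 10 libraries, with Benjamini-Hochberg adjustment over all genes (FDR, the adjusted p). Passed means an FDR at or under 0.05, and called also a log2 fold change of 1.5 or more in either direction. CPM are counts scaled to 1000000 per library, and log2 CPM for ranking used a prior count of 2. DESeq2 1.42.0, other scalings, filters and left-out libraries served as alternatives. Tests are two-sided.

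The members and the lists were chosen with earlier results of these data known. Named were the 10 genes, list genes called or among the 4 with the largest absolute log2 fold change past the FDR in a comparison, Ptgs1, Ptgs2 and Ncr1, and the 3 genes most like each member. Cyr61 and Ctgf were matched as Ccn1 and Ccn2. Replicate libraries of a group differed by more than sampling noise.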

Additional observations from a re-analysis of the deposited data

Results flagged for a closer look

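Sox10 in Ptgs+/+ replicate 3, at 5.53 CPM, lay far from the other 3 libraries of its group, with a gap to the nearest equal to 0.907 of the group's whole range, above Dixon's critical value for 4 samples. Chance gives such a gap in about 1 of 20 groups, and 8 genes were checked in the 1 group of 4 libraries. The same library had the highest Mitf and the highest Schwann cell marker sum of the Ptgs+/+ group and the lowest Ptgs2.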

How the results depend on the processing

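Of the log2 fold changes of the 7 genes tested under the other settings, 8 fell short of the threshold, 2 newly passed it, 15 changed sign, and the others kept direction and side. Sox9 kept both in every setting run, and Axl did so against Ptgs+/+ in all but 1. The number of higher members in Ptgs-/- against Ptgs+/+ dropped from 2 to 1 with EB046 libraries only, with only the 2 groups compared and with the replicate block, each time by loss of Ngfr (FDR = 0.0565, 0.0509 and 0.147), and was 1 to 2 with 1 library left out. In Ptgs-/- against NK cell-depleted Ptgs-/-, 1 was higher with no filter. The number of lower members in NK cell-depleted Ptgs-/- against Ptgs+/+ was 0 to 1 with 1 library left out.

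Genes called among all genes tested were 604, 167 and 395 in Ptgs-/- against Ptgs+/+, Ptgs-/- against NK cell-depleted Ptgs-/-, and NK cell-depleted Ptgs-/- against Ptgs+/+. With at least 10 counts in every library, which tests fewer genes, they were 305, 36 and 142. By FDR alone they were 3360 and 1818 in the comparisons with Ptgs+/+, and with EB046 libraries only 87 in the comparison of Ptgs-/- tumors. With 1 library left out they were 480 to 723, 100 to 213 and 343 to 439.

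Signs changed only for values that did not pass. Against NK cell-depleted Ptgs-/-, Axl in Ptgs-/- ran from -0.069 to 0.11 and Mitf from -0.0070 to 0.19 with 1 library left out, and Sox10 in Ptgs-/- against Ptgs+/+ from -1.01 to 0.028. In NK cell-depleted Ptgs-/- against Ptgs+/+, Erbb3 was 0.0044 with library size alone and 0.016 with the EB code as a term, and ran from -0.22 to 0.15 with 1 library left out. Ngfr was 0.071 with EB046 libraries only and ran from -0.78 to 0.54, and Sox10 from -0.27 to 0.59. The cause was not tested. Among the list genes named by the rule, Thbs1, Tfap2b, Irf4, Mertk, Gfra2, Aqp1 and Tgfbi passed against Ptgs+/+ in both comparisons in all 10 fits that left out 1 library, and Erbb2 passed in all 10 in Ptgs-/-. The other named list genes, Gpnmb, Cadm1, Nes, Kitl, Tnc, Inhba, Myo5a, Nrg1, Plaur and Snai2, lost it in 1 to 7 of the fits of at least 1 comparison in which they passed. Same-numbered libraries did not all deviate together (r = 0.355, -0.191 and 0.242 for Ptgs-/- with Ptgs+/+). The 2 positive values were above those of all differently numbered pairs of these groups, which reached 0.140. The pair at 0.242 is replicate 3 of each group, and these carry different title codes (EB042 in Ptgs-/- and EB046 in Ptgs+/+). A shared origin of same-numbered libraries is not settled here. The numbers were not taken as pairs in the main fit, and apart from the loss of Ngfr the replicate block changed no call of a member. A floor of 3 counts is 0.234 to 0.368 CPM, which limits Tyr, Dct, Mlana and Sox10.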
